A study of Mus musculus with 16 samples.

Results

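The 10 genes described here encode the chaperones of the cytosolic heat shock response and 2 of their mitochondrial counterparts. They are Hspa1a, Hspa1b, Hspa8, Hsph1, Hsp90aa1, Hspb1, Dnajb1, Hspe1, Hspd1 and Bag3, and they were found by gene symbol, or for Hsph1 by its older symbol Hsp110, among the 21337 genes that could be named on the array. The genes were chosen with earlier results of these samples known, namely the difference between treated and untreated livers at 5 h, the change of the untreated liver between 2 h and 5 h, and the difference of the stem cell effect between the 2 treatment schedules. The other differences between liver groups follow from these, so all liver values of the 10 genes are given as description without a p-value. The samples were livers and hepatic inflammatory cells of female C57Bl/6 mice, all of which had received 300 µg of concanavalin A, a jack bean lectin that stimulates T cells and thereby injures the liver. In the treated groups, 100000 stem cells grown out of inguinal fat of C57Bl/6 mice were given by tail vein. The 6 groups were 2 h livers with stem cells given immediately (mice 8, 9 and 10), 2 h livers without stem cells (mice 11, 12 and 13), 5 h livers with stem cells given at 3 h (mice 1, 2 and 3), 5 h livers without stem cells (mice 4, 5 and 6), 5 h inflammatory cells with stem cells given at 3 h (samples 987 and 989) and 5 h inflammatory cells without stem cells (samples 983 and 985). The stem cells had thus been in the animal for 2 h in every treated group. The source label of samples 983 and 985 mentions stem cells, which is absent from their treatment and description labels, and they were used as untreated. The labels do not say whether the samples of inflammatory cells came from separate mice, so p-values there measure only the spread between these samples, which may be technical. Mice without concanavalin A are not analysed here, so no level below is a baseline of resting liver.

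Heat shock proteins bind unfolded polypeptides and keep them from aggregating. Under heat, oxidative injury or other damage to proteins, the transcription factor HSF1 forms trimers, binds heat shock elements made of alternating GAA and TTC units, and switches on the genes of the inducible chaperones. In the cytosol the Hsp70 proteins work in a cycle with J-domain partners such as Dnajb1, which deliver clients and start ATP hydrolysis, and with nucleotide exchange factors such as Hsph1 and Bag3, which release the client. Hsp90 acts later on near-native clients, small heat shock proteins such as Hspb1 hold clients without using ATP, and Hspd1 with its lid Hspe1 forms the folding chamber of the mitochondrial matrix. In liver these genes are known to respond to fever, ischaemia, toxins and inflammation.

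All values below are log2 signal relative to that array's upper quartile (the 75th percentile of its spots), so a level of 0 is a signal equal to that percentile and a difference of 1 is a 2-fold change. Between 52.1% and 62.5% of spots on an array lay well above background, and 0 spots were saturated. The representative probe of each of the 10 genes was well above background on all 16 arrays. Hepatocyte markers (6 of 8 listed genes measured) averaged -1.12 to 1.51 in the inflammatory cells and 7.04 to 7.44 in the livers, while T cell markers (7 of 8 measured) averaged 2.05 to 2.99 in the inflammatory cells and -2.54 to -2.05 in the livers. At least 5 of the 6 hepatocyte markers were still well above background in every sample of inflammatory cells. In bulk samples, fewer cells of a type and less RNA per cell cannot be told apart. Some samples stood apart. Mouse 10 among the treated 2 h livers and mouse 13 among the untreated ones had the lowest neutrophil marker means of all livers (-1.04 in mouse 10 and -1.97 in mouse 13). For some results that rest on them, values without them or the range over other fits are given. Each of the 3 slides of liver arrays held 1 array of every liver group, and all 4 arrays of inflammatory cells lay on a slide of their own, so slide and tissue cannot be told apart. On the slides, all treated 2 h livers were at position 2 and all untreated 2 h livers at position 1, so position and treatment cannot be told apart at 2 h. All 5 h livers were at positions 3 and 4, so position and time cannot be told apart in the livers. Treated inflammatory cells were at positions 3 and 4 and untreated ones at positions 1 and 2. Position and treatment cannot be told apart there either.

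Upstream sequences are shown for the pair of genes with the widest differences between the livers, for Hspb1, which carries the same kind of motif and overlapped between the liver groups, and for the stretch that Hspd1 and Hspe1 share. RefSeq promoter windows (250 bases before and 50 after a transcript start, GRCm38.p6) matched 8 of the 10 genes, and the unmatched ones were Hspa8 and Hsp90aa1. A pair of facing units, GAANNTTC or TTCNNGAA (the search took each on both strands, and the 2 forms overlap in longer runs), occurred in the windows of 7 of these 8 genes, all but Dnajb1, and in 17.0% of all 27025 genes with a window. A run of 3 units, GAANNTTCNNGAA or TTCNNGAANNTTC, occurred in 3 of the 8 (Hspd1, Hspe1 and Hsph1) and in 0.662% of all genes. A match describes letters, not a bound site. The 250 bases upstream of the inducible Hsp70 genes Hspa1a (chr17:34972157-34972406, minus strand) and Hspa1b (chr17:34959239-34959488, minus strand) and of the small heat shock protein gene Hspb1 (chr5:135887669-135887918, plus strand) read as follows 5′ to 3′, with 2-unit matches in capitals:
Hspa1a: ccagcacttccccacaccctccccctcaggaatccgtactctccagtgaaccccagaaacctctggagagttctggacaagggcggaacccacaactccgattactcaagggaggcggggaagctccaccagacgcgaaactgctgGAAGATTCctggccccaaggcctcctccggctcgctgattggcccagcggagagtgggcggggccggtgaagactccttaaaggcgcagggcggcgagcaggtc
Hspa1b: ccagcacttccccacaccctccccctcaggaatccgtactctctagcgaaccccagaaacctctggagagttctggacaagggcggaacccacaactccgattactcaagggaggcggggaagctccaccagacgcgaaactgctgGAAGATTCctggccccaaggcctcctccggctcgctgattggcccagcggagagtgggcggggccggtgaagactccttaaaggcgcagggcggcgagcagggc
Hspb1: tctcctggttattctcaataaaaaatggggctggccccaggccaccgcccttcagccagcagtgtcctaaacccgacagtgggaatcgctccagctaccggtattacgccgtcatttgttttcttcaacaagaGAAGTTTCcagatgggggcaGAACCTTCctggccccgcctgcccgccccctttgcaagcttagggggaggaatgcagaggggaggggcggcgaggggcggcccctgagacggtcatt
The upstream stretches of Hspa1a and Hspa1b differed at 3 of 250 bases, and both held GAAGATTC with its first base 104 bases before the start site. Hspb1 held GAAGTTTC at 117 and GAACCTTC at 97 bases before its start site.

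Hspd1 and Hspe1 lie head to head on chromosome 1 and share the stretch between them. It holds a run of 18 bases with 4 alternating units, starting 89 bases before the start site of Hspe1, printed here on the plus strand (chr1:55088053-55088082) with the run in capitals:
Hspe1: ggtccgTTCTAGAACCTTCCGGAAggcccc
The same run is read on the minus strand from Hspd1, where its first base lies 144 bases before a start site of that gene. This holds for the Hspd1 window whose upstream part is chr1:55087933-55088182. The other Hspd1 window, with upstream part chr1:55088244-55088493, held 0 matches.

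The array carried 17 probes for the 10 genes. The probes that stand for Hspa1a (A_52_P82741, mm8 chr17:34577877-34577936) and Hspa1b (A_52_P52803, mm8 chr17:34565311-34565370), both on the minus strand, lie in neighbouring genes that are near-identical copies, and the accessions listed for the Hspa1b probe include that of Hspa1a. Signal of the pair is therefore reported as that of the inducible Hsp70 genes, and its split between the copies is uncertain. The other Hspa1b probe, A_52_P304902 (mm8 chr17:34566719-34566778), lists Hspa1b alone among RefSeq transcripts. A probe named Hspb1 in the design (A_52_P88910) lies on chromosome 13 of mm8, not on chromosome 5 where the other Hspb1 probe lies, was not well above background on any array, and was left out of the gene's value.

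Hspa1a and Hspa1b encode the inducible cytosolic Hsp70, which is scarce in resting cells and made in quantity under stress. At 5 h, Hspa1a read -1.11, -1.09 and 1.03 in livers with stem cells (mice 1, 2 and 3), against 4.63, 2.01 and 2.82 in livers without them (mice 4, 5 and 6). Hspa1b read -2.61, -2.54 and -1.01 in livers with stem cells, against 2.28, -0.16 and 0.56 in livers without them. No liver with stem cells reached the lowest liver without them for either gene, and mouse 3 was the highest treated liver and mouse 4 the highest untreated one for both. The log2 difference was -3.54 ± 0.81 for Hspa1a (11.6-fold lower with stem cells, 95% interval -5.35 to -1.73) and -2.95 ± 0.67 for Hspa1b (7.73-fold lower, interval -4.44 to -1.46), the lowest and the next lowest of the 14674 genes measured in liver (error after ± is the standard error of the fit, n = 3 each).

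**Figure D1:**
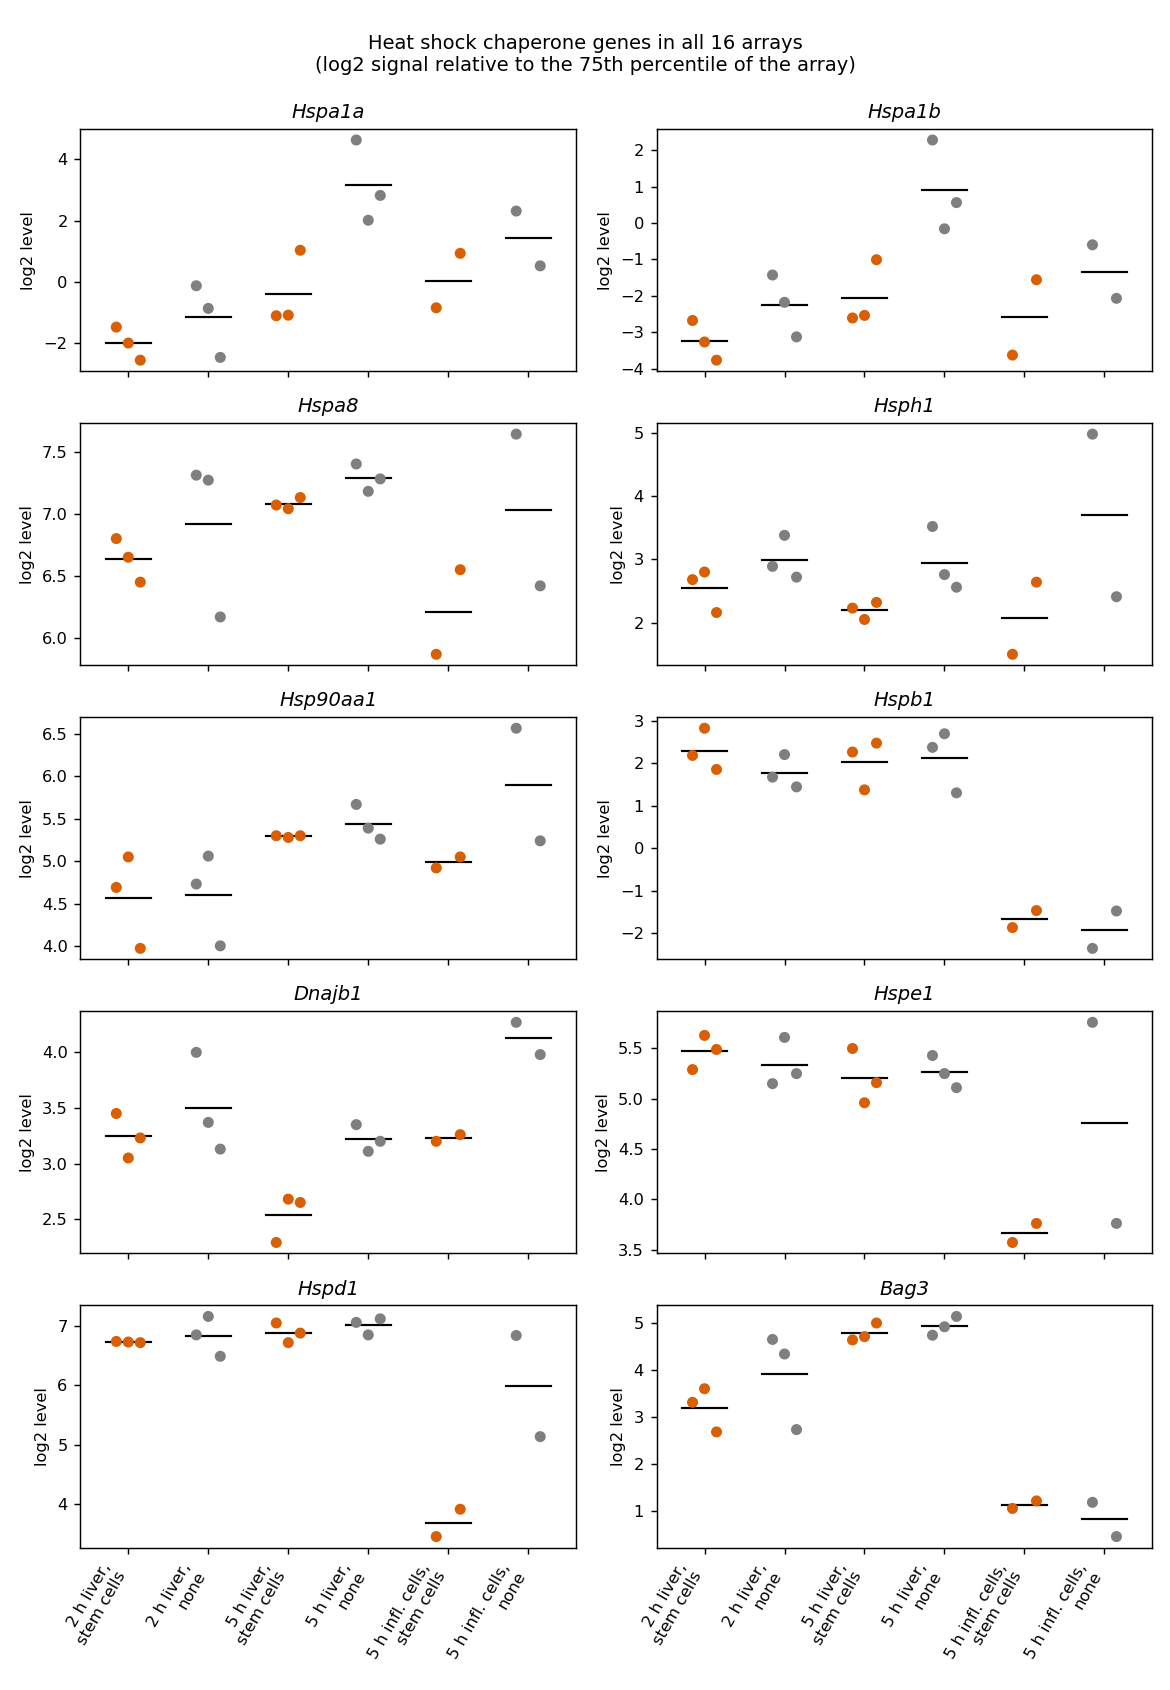
Level of each of the 10 genes on all 16 arrays (y axis, log2 signal over the array's 75th percentile, a separate scale for each gene) by group, with stem cells in orange and without in grey; a point is an array and a line the group mean. Hspa1a and Hspa1b are highest in the 5 h livers without stem cells, and Hspb1, Bag3 and, with stem cells, Hspd1 are low in the inflammatory cells.

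All 4 probes of this pair read lower in the 5 h livers with stem cells. The second Hspa1a probe differed by -3.53 between treated and untreated livers. The Hspa1b probe A_52_P304902, which does not list Hspa1a, averaged -5.20 in 5 h livers with stem cells, where it was well above background on 0 of 3 arrays, and -2.24 without them, where it was well above background on 3 of 3. Since the treated group has only a bound, the mean of the treated livers lay at least 7.79-fold below that of the untreated ones. The bound takes on each array the higher of the probe's own signal and the lowest signal well above background, and here it rested on the probe's own signal. Here and below, such a bound is a ratio of group means without an error and no limit for single samples. Mouse 3 read -4.42 on this probe and mouse 5 -3.21, which is a smaller difference. Within the slides, the Hspa1a difference was -5.73, -0.97 and -3.91 and the Hspa1b difference -4.89, -0.85 and -3.10, so the direction held on each of the 3 slides and the size varied widely. Leaving out single livers and the other settings moved the Hspa1a difference between -4.25 and -2.80 and the Hspa1b difference between -3.48 and -2.03.

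**Figure D2:**
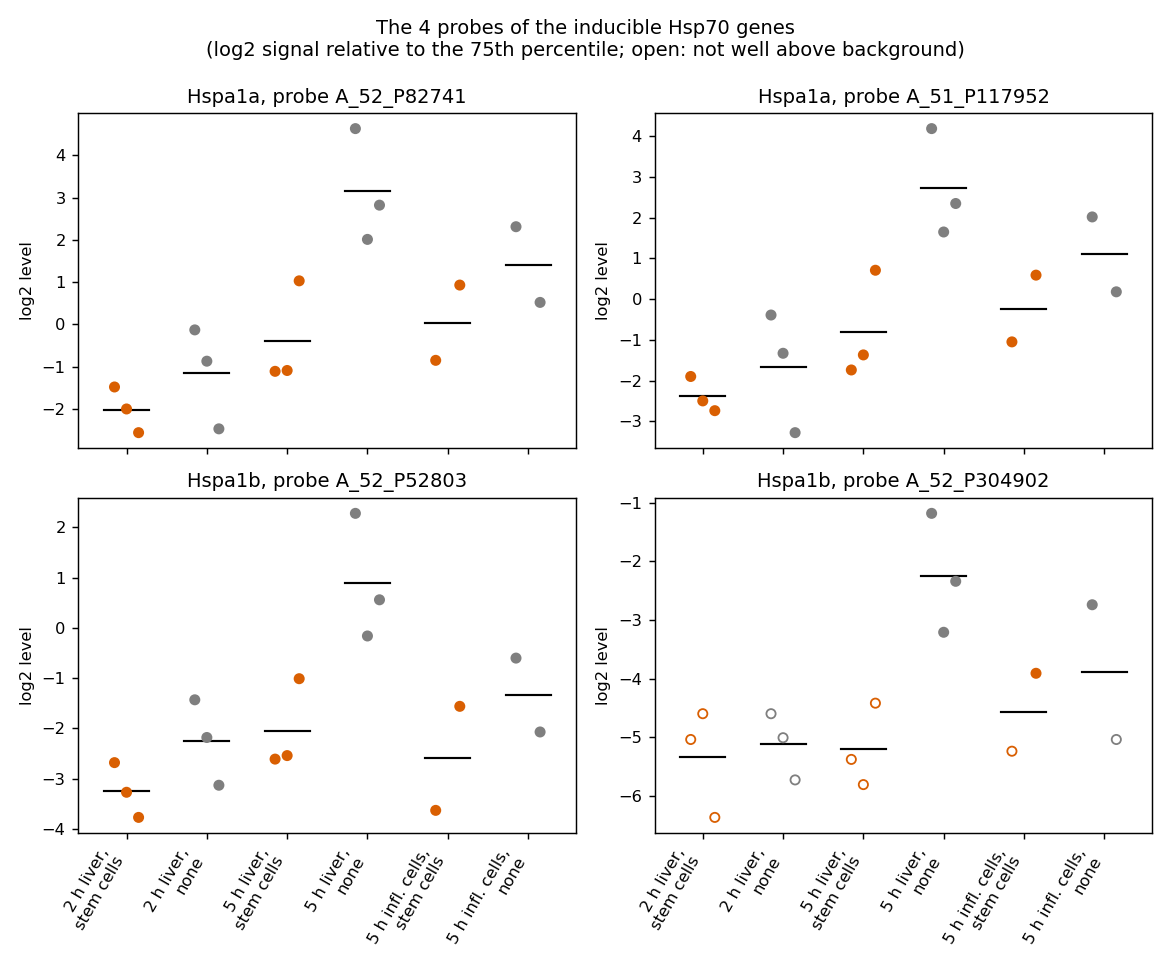
The 4 probes of Hspa1a and Hspa1b (y axis, log2 signal over the array's 75th percentile) in the 6 groups, with stem cells in orange and without in grey; open points are not well above background and lines are group means. In each panel the 5 h livers without stem cells hold the highest points, with means of 3.15, 2.73, 0.89 and -2.24.

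The partners of Hsp70 lay lower in the same livers by less. Dnajb1, a J-domain co-chaperone, read 2.29, 2.68 and 2.65 in 5 h livers with stem cells, against 3.35, 3.11 and 3.20 without them, and the groups did not overlap (difference -0.68 ± 0.22). Its dimmer probe differed by -0.19 and overlapped between the groups (-0.18 to 0.05 with stem cells, -0.19 to 0.59 without). Both the size and the separation therefore depend on the probe. Hsph1, an Hsp110 exchange factor, read 2.23, 2.05 and 2.32 with stem cells, against 3.52, 2.76 and 2.56 without them (-0.75 ± 0.28). Hspa8, the constitutive Hsp70, read 7.07, 7.04 and 7.13 with stem cells, against 7.40, 7.18 and 7.28 without them, a difference of -0.21 ± 0.26. The dimmer Hspa8 probe overlapped between the groups (4.65 to 5.22 with stem cells, 5.03 to 5.47 without). The exchange factor Bag3 (-0.15 ± 0.43), Hsp90aa1 (-0.15 ± 0.30), Hspb1 (-0.09 ± 0.42), Hspd1 (-0.13 ± 0.17) and Hspe1 (-0.06 ± 0.18) overlapped between the groups, and their 95% intervals ran from -1.11 to 0.84 in all.

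Over the 10 genes, all 10 differences were below 0 and the median was -0.18, where the median of all genes was 0.08. By the representative probes, every treated liver lay below every untreated one in 5 of the 10, against 9.43% of all genes tested. By limma 0 of the 10 passed, where 0.0341% of all genes did. Because the genes were chosen on this contrast, nothing is read from these counts. In the same livers the marker means lay higher with stem cells for neutrophils (1.48 to 1.60 against 0.91 to 1.36), macrophages and monocytes (2.51 to 2.65 against 1.97 to 2.39), endothelial cells (1.04 to 1.25 against 0.68 to 0.99), B cells (-3.27 to -2.75 against -3.54 to -3.39) and hepatocytes (7.15 to 7.44 against 7.04 to 7.08). All 8 neutrophil markers were well above background on every array of both groups. The part of these marker differences in the chaperone levels was not tested.

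The 2 h livers show the stem cells given together with concanavalin A. Hspa1a read -1.48, -2.00 and -2.56 in livers with stem cells (mice 8, 9 and 10), against -0.13, -0.87 and -2.47 without them (mice 11, 12 and 13). Hspa1b read -2.68, -3.27 and -3.77 with stem cells, against -1.43, -2.18 and -3.13 without them. Both groups overlapped through mouse 13, which was the lowest of its group. The differences were -0.86 ± 0.81 for Hspa1a (interval -2.66 to 0.95) and -0.99 ± 0.67 for Hspa1b. Leaving out single livers and the other settings moved them between -1.51 and -0.17 for Hspa1a and between -1.43 and 0.12 for Hspa1b. Bag3 read 3.31, 3.60 and 2.68 with stem cells, against 4.65, 4.34 and 2.73 without them (-0.71 ± 0.43).

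Of the 10 differences at 2 h, 8 were below 0 and the median was -0.27, against 0.08 over all genes. Without mouse 13, whose neutrophil markers also stood apart, Bag3 stood at -1.30 and Hspa8 at -0.65, and without mice 10 and 13 together Bag3 stood at -1.04. The Hspb1 difference at this time was 0.51 ± 0.42, the only one above 0 besides Hspe1 (0.14 ± 0.18). The red blood cell markers were lower with stem cells, with means of 2.71 to 3.02 in livers with them and 3.47 to 3.90 in livers without, all 4 below 0 with a median of -0.94, and their part in these values was not tested.

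The inflammatory cells are other samples than the livers, and there the inducible Hsp70 genes had lower means with stem cells, with groups that overlapped. Hspa1a read -0.85 and 0.93 with stem cells (samples 987 and 989), against 2.31 and 0.52 without them (samples 983 and 985), and the difference was -1.38 ± 0.79 (adjusted p = 0.402, interval -3.30 to 0.55). Hspa1b differed by -1.26 ± 0.79 (adjusted p = 0.436). The largest difference of the 10 was that of Hspd1, the mitochondrial Hsp60, which read 3.46 and 3.92 with stem cells, against 6.84 and 5.14 without them. It came to -2.29 ± 0.60 (4.90-fold lower, interval -3.76 to -0.83) and did not pass the adjustment over all genes (adjusted p = 0.177). Its second probe differed by -2.35. Its partner Hspe1 read 3.57 and 3.76 with stem cells, against 5.76 and 3.76 without them (-1.10 ± 0.66, adjusted p = 0.418), so the difference lay in sample 983.

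Sample 983 was the higher of the untreated samples for all 10 genes but Hspb1. By limma 0 of the 10 passed in inflammatory cells, where 0.014% of genes did in either direction, and 2 (Hspd1 and Dnajb1) had an unadjusted p under 0.05, where 17.9% of genes did. Every treated sample lay below every untreated one for 4 of the 10 (Hspd1, Hspe1, Hsp90aa1 and Dnajb1), against 24.9% of all genes. The median of the 10 was -1.01, against 0.09 over all genes. Without sample 985, which leaves a single untreated sample, Hspd1 stood at -3.14, Hsph1 at -2.90, Hspe1 at -2.09 and Hsp90aa1 at -1.59. With normexp background correction 3 passed (Hspd1 -2.57, Hsph1 -1.79 and Dnajb1 -1.15). The share of all genes that passed under that setting is not given, so the count is not read as a result. The probes of Dnajb1 disagreed: the representative one differed by -0.89 (adjusted p = 0.261) and the dimmer one by 0.50. The marker means of neutrophils (3.19 to 3.53 with stem cells, 1.73 to 2.06 without) and of macrophages and monocytes (3.86 to 3.87 with, 2.57 to 3.45 without) lay higher with stem cells, as did those of B cells (3.63 to 3.65 with, 2.43 to 3.49 without), endothelial cells (-0.49 to -0.08 with, -1.36 to -0.68 without) and stromal cells (-5.22 to -4.86 with, -5.69 to -5.50 without). These means did not overlap between the groups, and their part in these values was not tested.

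**Figure D3:**
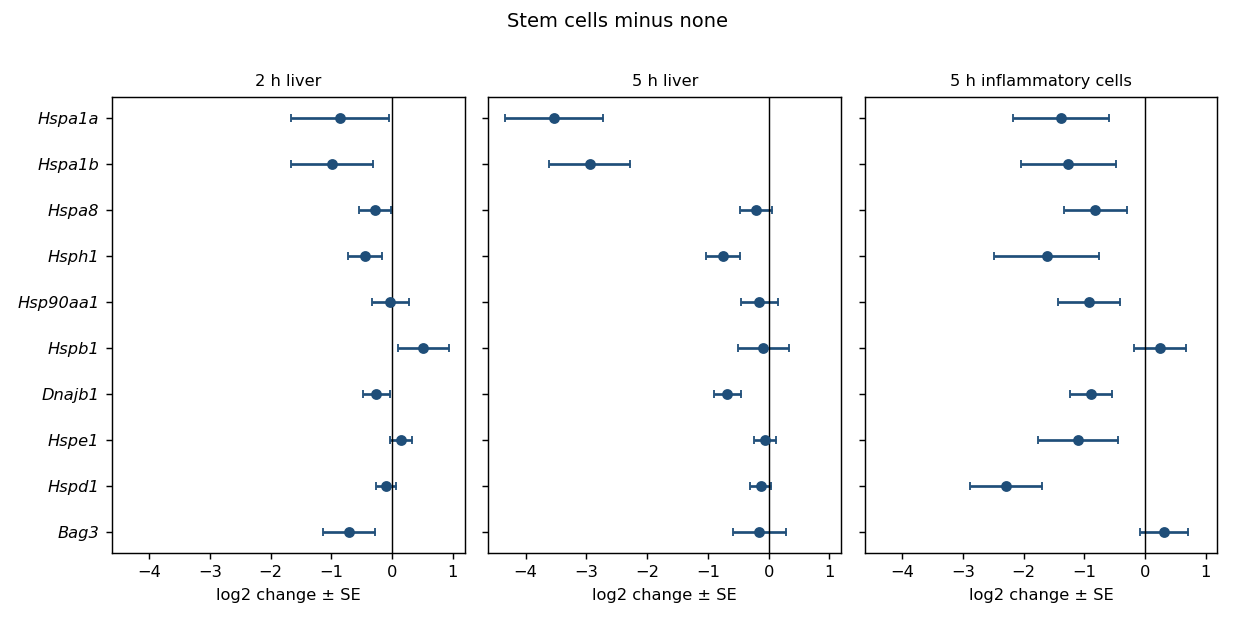
Log2 difference between samples with and without stem cells (x axis, points, with bars of 1 standard error of the limma fit) for the 10 genes in 2 h liver, 5 h liver and 5 h inflammatory cells; negative values are lower with stem cells. Hspa1a and Hspa1b stand furthest left in 5 h liver at -3.54 and -2.95, and Hspd1 in the inflammatory cells at -2.29.

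The stem cell effect was set against itself in the same fits. Between the liver schedules (effect at 5 h minus effect at 2 h) the difference was -2.68 ± 1.15 for Hspa1a (interval -5.24 to -0.13) and -1.96 ± 0.95 for Hspa1b (interval -4.07 to 0.15), and it lay between -0.60 and 0.56 for the other 8. Within the 3 slides the Hspa1a value was -5.12, 1.46 and -4.38, so it was above 0 on the second slide, which holds mice 10, 11, 3 and 5. Between inflammatory cells and liver (effect in cells minus effect in liver at 5 h) Hspd1 stood lowest at -2.17 ± 0.53, and the inducible Hsp70 genes stood at 2.16 ± 1.34 for Hspa1a and 1.69 ± 1.17 for Hspa1b. Without sample 985 Hspd1 stood at -3.02, Hspe1 at -2.03 and Hsph1 at -2.15. These differences contain the liver effect on which the genes were chosen, and are description too. Between the schedules 0 of the 10 passed by limma, where 0.0136% of all genes did.

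The livers of both schedules can also be set by time, though times and schedules go together in the treated mice. Without stem cells, Hspa1a read 4.63, 2.01 and 2.82 at 5 h, against -0.13, -0.87 and -2.47 at 2 h, a log2 difference of 4.31 ± 0.81 (19.8-fold, interval 2.50 to 6.11) that was the highest of the 14674 genes. Hspa1b differed by 3.14 ± 0.67 (8.84-fold), and its probe A_52_P304902, not well above background in the 2 h livers, had a mean at least 7.31-fold higher at 5 h. Bag3 read 4.74, 4.92 and 5.14 at 5 h, against 4.65, 4.34 and 2.73 at 2 h (1.03 ± 0.43), and Hsp90aa1, the inducible cytosolic Hsp90, read 5.67, 5.39 and 5.26 at 5 h, against 4.73, 5.06 and 4.00 at 2 h (0.84 ± 0.30). These 4 genes were higher in every 5 h liver than in every 2 h liver, as were 15.2% of all genes, and since these values were known when the genes were chosen, nothing is read from the count. The dimmer Bag3 probe overlapped between the times (0.14 to 0.77 at 5 h, -1.50 to 0.33 at 2 h). Hspa8 differed by 0.37 ± 0.26, and by 0.00 without mouse 13. The difference between the times was 5.50, 2.13 and 5.29 for Hspa1a within the 3 slides. For Bag3 it was 0.40, 0.27 and 2.41, the last on the slide that holds mouse 13. Leaving out single livers and the other settings moved the Bag3 difference between 0.44 and 1.40.

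With stem cells, Bag3 was higher at 5 h as well, reading 4.64, 4.71 and 5.00 at 5 h with stem cells at 3 h, against 3.31, 3.60 and 2.68 at 2 h with immediate stem cells (1.59 ± 0.43, 3.01-fold), and its second probe differed by 1.29. Hspa1a read -1.11, -1.09 and 1.03 at 5 h, against -1.48, -2.00 and -2.56 at 2 h (1.62 ± 0.81), and Hspa1b differed by 1.19 ± 0.67. The Hspa1b probe A_52_P304902, not well above background in either group, differed by 0.13. Dnajb1 read 2.29, 2.68 and 2.65 at 5 h, against 3.45, 3.05 and 3.23 at 2 h (-0.70 ± 0.22). Hspa1a, Hspa1b, Hspa8, Hsp90aa1 and Bag3 were higher in every 5 h liver, as were 18.4% of all genes, and Dnajb1 was lower in every one, as were 24.3% of all genes. The dimmer Hspa8 probe overlapped between the times (4.65 to 5.22 at 5 h, 4.15 to 4.82 at 2 h). Markers of other cells moved with time too. With stem cells the marker means lay higher at 5 h for red blood cells (3.89 to 4.13 against 2.71 to 3.02, 3 of 4 rose, median 1.17), neutrophils (1.48 to 1.60 against -1.04 to 0.54, 2 of 8 rose, median 1.69), macrophages and monocytes (2.51 to 2.65 against 1.97 to 2.17) and NK cells (-3.29 to -3.26 against -3.97 to -3.56). They lay lower at 5 h for stromal cells (-2.01 to -1.57 against -0.88 to -0.55, 3 of 6 fell, median -0.93), endothelial cells (1.04 to 1.25 against 1.40 to 1.54) and B cells (-3.27 to -2.75 against -2.70 to -2.56). Without stem cells the means lay higher at 5 h for neutrophils (0.91 to 1.36 against -1.97 to 0.30, 2 of 8 rose, median 1.72) and NK cells (-3.43 to -3.15 against -3.61 to -3.47). They lay lower for stromal cells (-2.01 to -1.93 against -1.39 to -0.17, 3 of 6 fell, median -1.02), endothelial cells (0.68 to 0.99 against 1.29 to 1.54, 3 of 6 fell), B cells (-3.54 to -3.39 against -3.20 to -1.59) and hepatocytes (7.04 to 7.08 against 7.19 to 7.33). Among all genes 8.76% rose and 9.77% fell with stem cells, and 6.45% rose and 9.19% fell without. The part of these cells in the chaperone values was not tested.

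**Figure D4:**
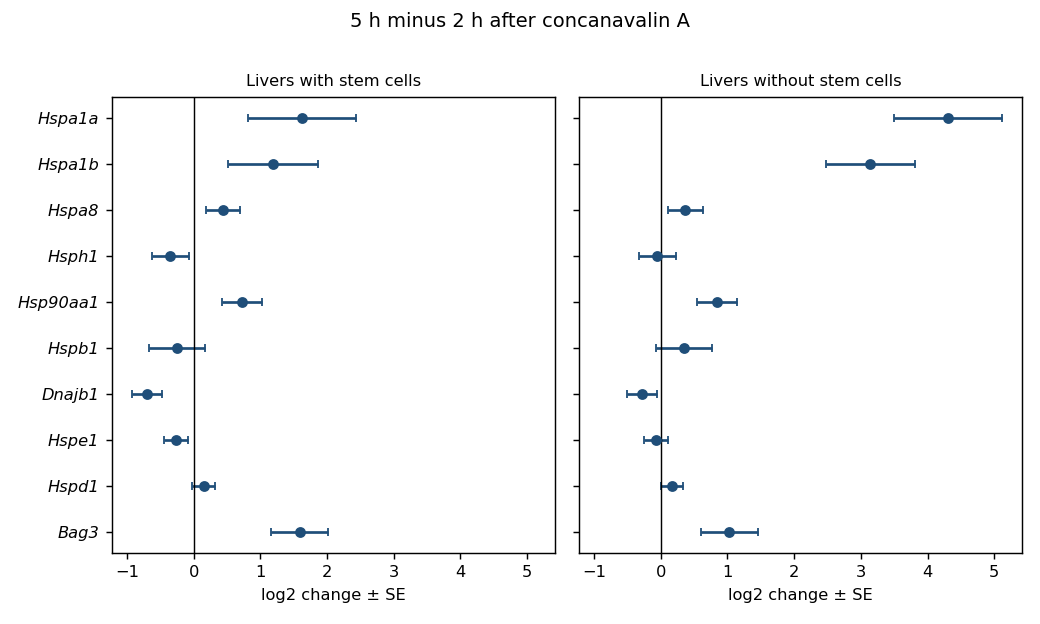
Log2 difference between 5 h and 2 h livers (x axis, points, with bars of 1 standard error of the limma fit) for the 10 genes, with stem cells on the left and without on the right; positive values are higher at 5 h. Hspa1a is at 1.62 with stem cells and 4.31 without, and Bag3 at 1.59 and 1.03.

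Inflammatory cells and whole liver differed in which chaperones they held at 5 h. The arrays of the cells were no part of what the genes were chosen on, but the 5 h livers were, so the p-values below are only partly independent of the choice, and Hspa1a and Hspa1b are given without any. With stem cells 28.3% of all genes rose and 35.4% fell by the same test, and without stem cells 29.2% rose and 31.7% fell. The exchange factor Bag3 read 1.05 and 1.21 in cells with stem cells and 1.18 and 0.45 in cells without, against 4.64 to 5.00 in livers with and 4.74 to 5.14 in livers without. It fell by 3.65 ± 0.47 on the log2 scale in the cells with stem cells (12.6-fold, adjusted p = 1.58e-05) and fell by 4.11 ± 0.47 without (17.3-fold, adjusted p = 5.53e-06). Hspb1 read -1.87 and -1.47 in cells with stem cells and -2.36 and -1.48 in cells without, against 1.37 to 2.47 and 1.30 to 2.69 in the livers. It fell by 3.70 ± 0.47 with stem cells (13.0-fold, adjusted p = 1.4e-05) and fell by 4.04 ± 0.47 without (16.5-fold, adjusted p = 6.58e-06). Both genes passed under each of the other settings and with each array left out.

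The mitochondrial pair was lower in the cells as well. Hspd1 fell by 3.19 ± 0.38 with stem cells (9.11-fold, adjusted p = 7.77e-06) and fell by 1.02 ± 0.38 without (2.03-fold, adjusted p = 0.0313), and the second value passed in 6 of 12 other fits and stood at -0.17 without sample 985 (adjusted p = 0.621). Hspe1 fell by 1.54 ± 0.42 with stem cells (adjusted p = 0.00591) and differed by -0.50 ± 0.42 without (adjusted p = 0.320). Hspa1a differed by 0.43 ± 0.95 with stem cells and by -1.74 ± 0.95 without, and Hspa1b by -0.54 ± 0.83 with and by -2.23 ± 0.83 without, the last value being -1.54 without mouse 4 and -1.50 without sample 985. The Hspa1b probe A_52_P304902 differed by 0.63 with stem cells, where no liver array was well above background, and by -1.65 without. Dnajb1 was the member that rose, by 0.69 ± 0.25 with stem cells (adjusted p = 0.0272) and by 0.90 ± 0.25 without (adjusted p = 0.00657), and its dimmer probe differed by 1.84 and 1.15.

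Of the 8 genes other than Hspa1a and Hspa1b, 1 rose and 4 fell in cells with stem cells, where 28.3% of all genes rose and 35.4% fell. Without stem cells 1 rose and 3 fell, where 29.2% of all genes rose and 31.7% fell. With so few genes, nothing is read from these counts. Medians of the 10 were -0.70 with stem cells and -0.76 without, against -0.23 and -0.04 over all genes. Some directions depend on the scaling, and quantile normalization moved the median of all genes by 0.19 with stem cells and 0.13 without. Under it Hspa8 stood at 0.04 in place of -0.87 with stem cells and Hspe1 at 0.27 in place of -0.50 without. Hspe1 with stem cells (-0.60) and Hspd1 without (-0.23) then missed the threshold, and Hsp90aa1 without stem cells passed it at 1.35. The hepatocyte marker means were 0.35 to 1.51 in cells with stem cells and -1.12 to 0.60 in cells without, against 7.04 to 7.44 in the livers, and differed in the same comparison by far more than any of the 10 genes.

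**Figure D5:**
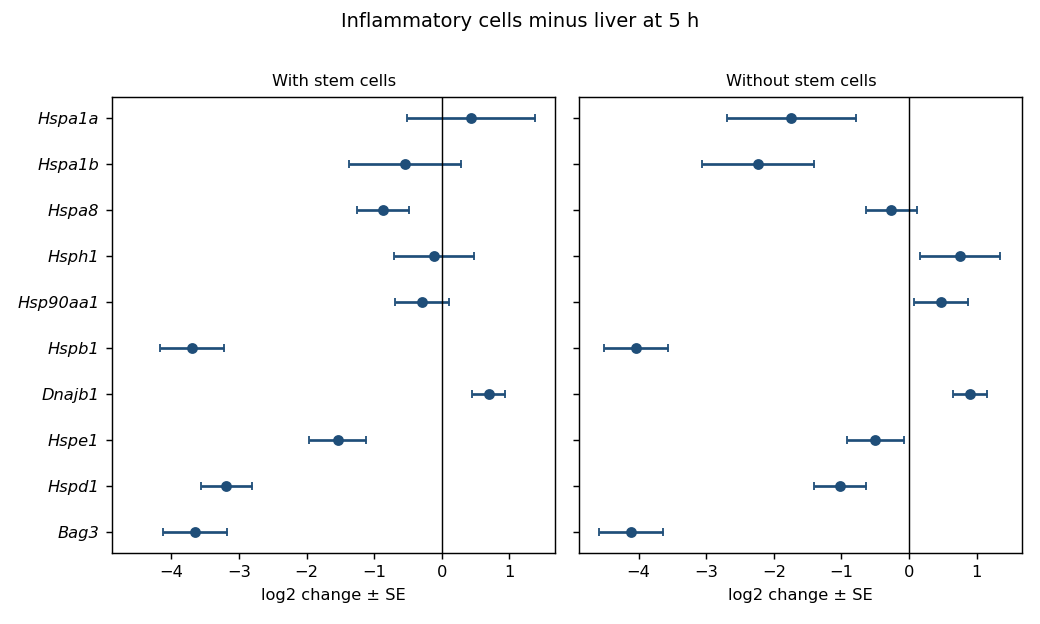
Log2 difference between inflammatory cells and liver at 5 h (x axis, points, with bars of 1 standard error of the limma fit) for the 10 genes, with stem cells on the left and without on the right; negative values are lower in the cells. Bag3 and Hspb1 are far to the left in both panels, and Hspd1 is at -3.19 with stem cells and -1.02 without.

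Related lists that the 10 genes belong beside were measured in the same fits: other cytosolic chaperones and co-chaperones (30 of 31 listed measured in liver), the TRiC chaperonin of the cytosol (8 of 8), mitochondrial chaperones and proteases (10 of 10), endoplasmic reticulum chaperones and stress factors (20 of 20) and heat shock factors with their binding proteins (4 of 5). The lists, too, were chosen with earlier results of these data known. Calls and p-values of list genes, here and below, are therefore description and not independent tests. In 5 h livers with against without stem cells 0 of 72 genes of the 5 lists passed by limma, where 0.0341% of all genes did. An unadjusted p under 0.05 was found for 14 of the 72, and for 1818 of all 14674 genes. The endoplasmic reticulum list had 18 of 20 values below 0 with a median of -0.45, against -0.18 over the 10 genes and 0.08 over all genes, and held the values with the smallest p, Creld2 (-1.62 ± 0.39, adjusted p = 0.209) and Ddit3, the stress transcription factor CHOP (-1.48 ± 0.42, adjusted p = 0.251). The medians of the other lists lay between -0.15 and 0.00. Within the cytosolic list Chordc1, an Hsp90 co-chaperone, had the smallest p (-0.43 ± 0.16, adjusted p = 0.342), and of the factors Hsf2 was not well above background in either group.

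In 2 h livers 0 of the 72 passed by limma, where 0.0273% of all genes did. The unadjusted p was under 0.05 for 1 of the 72, and for 828 of all 14674 genes. In the test between the schedules 0 of the 72 passed, where 0.0136% of all genes did. There the unadjusted p was under 0.05 for 8 of the 72, and for 689 of all 14674 genes. At 5 h against 2 h without stem cells, where 6.45% of all genes rose and 9.19% fell, 4 of 20 endoplasmic reticulum genes rose: Creld2 by 1.83 ± 0.39, Manf, a secreted stress protein, by 1.22 ± 0.29, Hspa5, the Hsp70 of that compartment, by 0.99 ± 0.26, and the transcription factor Atf4 by 0.89 ± 0.21 (adjusted p 0.0148 to 0.0307). Of 30 cytosolic genes 2 rose (the small heat shock protein gene Hspb8 by 0.98 ± 0.23 and Bag5 by 0.44 ± 0.13) and 1, the alphaB-crystallin gene Cryab, fell by 0.93 ± 0.19. In the other lists Cct3 of TRiC rose by 0.70 ± 0.20, the mitochondrial unfoldase gene Clpx by 0.69 ± 0.19, and Hsf4, well above background on 1 of 3 arrays at 5 h, fell by 0.86 ± 0.26. With stem cells the same time comparison, in which 8.76% of all genes rose and 9.77% fell, gave 3 rises and 4 falls among 30 cytosolic genes, among them Hspa14 (1.68 ± 0.34) and Hspb8 (1.07 ± 0.23) upwards and Dnajb4 (-1.32 ± 0.38) and Dnajb2 (-1.02 ± 0.15) downwards. Xbp1 rose by 1.44 ± 0.26 and Herpud1 fell by 2.39 ± 0.45 in the endoplasmic reticulum list, Clpx rose by 1.42 ± 0.19, and Hsbp1, which binds HSF1, fell by 0.53 ± 0.16. Hsf2 was at least 3.09-fold lower (adjusted p = 0.0288, measured on 2 of 3 arrays at 2 h) and Hsf4 at least 1.97-fold lower (adjusted p = 0.0272), since neither was well above background in the 5 h livers with stem cells.

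In the inflammatory cells 0 of 69 genes of the 5 lists passed by limma for stem cells against none, where 0.014% of all genes did. The unadjusted p was under 0.05 for 12 of the 69, and for 17.9% of all genes. All 10 mitochondrial and all 8 TRiC genes measured were below 0, with medians of -0.87 and -1.14 against 0.09 over all genes. The test of cells against liver in the stem cell effect called 3 of 10 mitochondrial genes, all lower in the cells, where 1.74% of all genes fell: the J-domain gene Dnaja3 (-2.26 ± 0.29, adjusted p = 0.00422), the mitochondrial Hsp70 gene Hspa9 (-1.50 ± 0.29, adjusted p = 0.0217) and the protease gene Afg3l2 (-1.30 ± 0.26, adjusted p = 0.0265), and 0 genes of the other lists. Hspd1, which was not counted in that list, stood at -2.17 in the same test. Between cells and liver with stem cells, where 28.3% of all genes rose and 35.4% fell, 9 of 10 mitochondrial genes fell, led by Clpx (-4.56 ± 0.22), Dnaja3 (-4.02 ± 0.21), Trap1 (-3.33 ± 0.32) and Grpel1 (-3.02 ± 0.24), and without stem cells, where 29.2% of all genes rose and 31.7% fell, 6 of 10 fell. Of the cytosolic list 1 rose and 15 fell with stem cells, and 3 rose and 6 fell without, and Hspb8 fell by 7.30 ± 0.35 with stem cells and fell by 8.47 ± 0.35 without. Hspb6, another small heat shock protein, lay at least 14.4-fold lower in cells than in livers with stem cells (not well above background on either treated cell array, adjusted p = 8.5e-07) and fell by 3.75 ± 0.36 without. TRiC genes went the other way without stem cells, where 5 of 8 rose, Cct2 most (1.00 ± 0.22), while with stem cells 1 of 8, Cct3, fell (-0.99 ± 0.29).

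The 10 genes did not vary as a unit across the 12 livers. Over their 45 pairs Pearson's r had a median of 0.35 and ran from -0.38 to 0.99, with 36 pairs above 0. The mean of the 10, each centred on its own average, followed the pair with the widest range (Hspa1a r = 0.97, Hspa1b r = 0.96), then Hspa8 (0.85), Hsp90aa1 (0.80), Bag3 (0.79) and Hspd1 (0.71), and it had r = 0.54 with Hsph1, 0.27 with Hspb1, 0.15 with Dnajb1 and -0.12 with Hspe1. Of all other genes, those most like this mean over the 12 livers were Cttnbp2nl (0.97), Trim69 (0.96), Clcn3 (0.95), Trappc13 (0.95), Nck1 (0.94) and Trim47 (0.94), the highest values of 14674 genes searched. The livers share slides and fall into 4 groups, so these values describe and are not tested. In 5 h livers with against without stem cells these 6 genes differed by -0.23 (Clcn3) to -1.05 (Nck1, an adaptor of receptor tyrosine kinases), and at 5 h against 2 h without stem cells by 0.36 (Clcn3) to 1.44 (Nck1). As the 6 were picked by likeness over these same livers, the direction of these differences follows from the choice and is no further result.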

How the data were processed

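RNA of 16 samples was hybridised to Agilent mouse arrays with 1 dye, Cy3. The deposited scanner files hold spot intensity on a linear scale, which the authors extracted with Agilent Feature Extraction, version 10.5.1.1, per the submitters' processing notes. The background was subtracted and the signal spatially detrended, and no normalization between arrays was applied, per the file headers. The deposited series value table repeats these intensity values (largest difference 0).

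Control spots were left out, outlier spots set to missing (55 to 100 per array) and spots of a probe averaged. Values are log2 processed signal less that of the array's own 75th percentile, which ran from 212 to 426. A probe was kept when well above background on at least 3 of 12 liver arrays, 2 of 4 arrays of inflammatory cells or 2 of all 16, and each gene was represented by the brightest of its kept probes. Probes were named by accession or symbol through the RefSeq gene table, as described for each gene, from the design otherwise. Probe positions are on mm8, per the file headers, and promoter windows on GRCm38.p6 from RefSeq. The 2 sets of coordinates were not combined.

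Groups were compared with limma 3.58.1 (lmFit, eBayes, 2-sided) in R 4.3.3, with 1 fit for the 12 livers (14674 genes), 1 for the 4 samples of inflammatory cells (14275) and 1 for all 16 (16342), and Benjamini-Hochberg adjustment over all genes, at a threshold of 0.05. No outcome of a test of the fits on simulated data is given here, and nothing about their error rates is read from one. The number of arrays limits the precision. Alternatives were quantile normalization, normexp background correction with an offset of 50, the series value table, no filter, the mean of kept probes, slide as a block, array weights, the compared groups alone, and leaving out single arrays or mice 10 and 13. Lists were described by counts and medians, and no list was tested. Genes named from a list are among those past the threshold in the comparison, at most 4 per direction by size. Where none passed, genes with the smallest p of a list were named only for stem cells in 5 h livers, and not for every list. A further 6 genes were added by their likeness to the mean of the 10. Levels are not compared between probes. The members and the lists were chosen with earlier results of these data known.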

Additional observations from a re-analysis of the deposited data

How the results depend on the processing

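The counts of the 10 genes past the threshold were recomputed under every alternative listed in the processing summary. Since the genes were chosen on liver values, counts from liver comparisons are given only to show how they depend on the processing. The share of all genes called under each setting is not given beside any count. The counts are therefore not read as results about the 10 genes. The count stayed at 0 for stem cells in 5 h liver and for the difference between schedules in each alternative run, leaving out single arrays included. With the compared groups fitted alone, the 5 h against 2 h comparison without stem cells gave 0 in place of 2, and leaving out single arrays gave 2 to 2. With stem cells the same comparison gave 2 with quantile normalization, 0 when slide was a block, 4 under array weights and 2 with the groups alone, in place of 1, and leaving out single arrays gave 0 to 1. Stem cells in 2 h liver gave 1 without mice 10 and 13, and 0 to 2 leaving out single arrays. Stem cells in inflammatory cells gave 3 with normexp background correction. Cells against liver without stem cells gave 3 with array weights and 3 to 5 leaving out single arrays, where the main count was 5, and with stem cells 4 to 5. The difference of stem cell effects between cells and liver gave 0 to 3. Of the single genes, direction turned for Hspe1 in cells against liver without stem cells (0.27 with quantile normalization, and 0.49 without sample 985 against -1.50 without sample 983) and Hspa8 in the same contrast with stem cells (0.04 with quantile normalization). It also turned for Hspa1b with stem cells at 2 h (0.12) and Hspe1 at 5 h against 2 h with stem cells (0.12), both with normexp. Hspa8 at 5 h against 2 h without stem cells stood at 0.00 without mouse 13, and without mice 10 and 13, and at 0.57 at the most, without mouse 11. Without sample 983, Hsph1 (-0.54) and Hsp90aa1 (-0.20) turned in cells against liver without stem cells, as did Hsph1 in the difference of effects between cells and liver (0.42). Without sample 985 these values were 2.03, 1.13 and -2.15. The cause was not tested. Dnajb1 in cells against liver passed in 8 of 12 alternatives with stem cells and in 10 of 12 without. The median of all genes moved by over 0.1 with normexp in inflammatory cells (0.15), in cells against liver with stem cells (0.42) and in the difference between cells and liver (0.28), and with quantile normalization in cells against liver as given above. No paired analysis was possible because the mouse and sample numbers of the groups are all different. Slide, which holds 1 array of each liver group, was used as a block instead. Of the 50 liver values of the genes, 1 then no longer passed the threshold, that of Bag3 at 5 h against 2 h with stem cells. This too is given only to show the dependence on the processing.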
